A study of Mus musculus with 8 samples.

Results

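ISG15 is a small protein that resembles ubiquitin and that interferon-treated cells attach to other proteins. The 5 genes described here were the mouse genes of that system: Isg15, the modifier itself, Uba7, the E1 enzyme that activates it, Ube2l6, the E2 enzyme that carries it, Herc6, the ligase (E3) that attaches it in mice, and Usp18, the protease that takes it off again. They were chosen by symbol, with earlier results of these data known. Each symbol matched 1 of the 27998 genes in the files, so the group held 5 genes of 27998.

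Type I interferons such as IFNα bind a cell surface receptor (IFNAR1 and IFNAR2) whose kinases activate STAT2. With IRF9 it takes part in a complex that enters the nucleus and switches on interferon-stimulated genes, among them those of the ISG15 system. USP18 has a second role in the same pathway, since it binds IFNAR2 and dampens further signalling. In hematopoietic stem cells (HSCs), which IFNα drives out of quiescence, USP18 and ISG15 are known as part of the interferon response, but the measurements here are of RNA and say nothing of conjugated protein.

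The cells came from the bone marrow of wild-type C57Bl/6 mice 12 to 14 weeks old. They were LK cells, that is, cells without surface markers of mature lineages (Lin-) that carried cKit, enriched with HSCs sorted as LK CD150+ CD48- CD34-. Each treated mouse had 1 subcutaneous injection of 50000 IU recombinant mouse IFNα per 20 g, and its marrow was taken 3 h, 24 h or 72 h later. The control was an injection of 100 µl of phosphate-buffered saline (PBS). The 4 mice of each group were marked with a hashtag antibody each, pooled, and sequenced as 1 droplet library, so that time point and library cannot be told apart. The mouse was the replicate (n = 4 per group unless stated). No group lacked interferon receptors or any of the 5 genes, and the gate left out mature cells and stroma, so other marrow cells were not measured.

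A total of 10046 cells was kept, of which 2474 were control cells, while the 3 h, 24 h and 72 h libraries gave 1661, 3462 and 2449. Mice held 58 to 1240 cells and 1102706 to 26446327 UMIs (unique molecular identifiers, each standing for 1 counted RNA molecule). Control replicate 4 stood apart with 58 cells and 1102706 UMIs, and some of the values that rest on it are also given without it. The median UMI count per cell was 12017 at 3 h and 14763 to 18964.5 in the other libraries. A barcode also seen in another library was carried by 18 kept cells, and without them the counts of the 5 genes called over all cells were as they are with them. The listed markers of HSCs, lymphoid-primed multipotent progenitors (LMPPs), and myeloid, erythroid and megakaryocyte (MK) progenitors all had UMIs in every library. Of the markers of other marrow cells, 3 of dendritic cells summed to at most 2.62 CPM in any mouse (counts of a gene per 1000000 UMIs) and 3 of stroma and endothelium to at most 3.63. Those of the B lineage (6 genes) summed to 31.4 to 69.4 and those of T and NK cells (4 genes) to 290 to 621 CPM, with Cd3e, which defines T cells, at 0 in every treated library and Pax5, which defines B cells, at 0 at 3 h. At 3 h the B lineage sum was 31.4 to 34.0 against 42.6 to 53.8 in control, and its part in the results was not tested.

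The 5 genes lie apart from each other in the genome (GENCODE vM21 annotation, GRCm38, the assembly that mm10 names), apart from Herc6 and Usp18, which share chromosome 6. Isg15 is at chr4:156199424-156200818 on the minus strand, a gene of 2 exons. Uba7 is at chr9:107975505-107984060, Ube2l6 at chr2:84798828-84810335, Herc6 at chr6:57581000-57664632 and Usp18 at chr6:121245906-121270917, all on the plus strand. Uba7 shares exon sequence with Gm20661 on the same strand, which took 1 UMI in control and 10 to 14 UMIs in each treated library. Usp18 overlaps Gm44148 on the other strand, with 7 to 55 UMIs per library. Herc6 overlaps Gm45193 on the same strand, which has no row in the files, so that reads of these pairs cannot be assigned with certainty.

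The bases just before the start of transcription are shown because the complex with STAT2 and IRF9 reads DNA there. It binds the interferon-stimulated response element, searched for here as GAAA, any 2 bases, GAAA, on both strands, that is, also as TTTC, any 2 bases, TTTC. The 150 bases before the RefSeq start (GRCm38.p6) read 5′ to 3′ on each gene's own strand as follows, with matches in capitals, for Isg15 at chr4:156200819-156200968, Ube2l6 at chr2:84798678-84798827 and Herc6 at chr6:57580842-57580991.
Isg15: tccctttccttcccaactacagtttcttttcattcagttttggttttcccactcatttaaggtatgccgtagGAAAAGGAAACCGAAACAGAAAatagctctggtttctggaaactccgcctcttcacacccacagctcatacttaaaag
Ube2l6: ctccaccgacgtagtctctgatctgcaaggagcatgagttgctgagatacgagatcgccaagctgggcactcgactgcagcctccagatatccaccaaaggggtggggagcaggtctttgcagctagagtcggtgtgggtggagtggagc
Herc6: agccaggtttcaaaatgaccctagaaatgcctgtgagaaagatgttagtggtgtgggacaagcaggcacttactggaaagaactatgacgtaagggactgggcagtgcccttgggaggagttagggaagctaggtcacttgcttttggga
Isg15 held 3 overlapping matches, which began 78, 72 and 66 bases before the start and ran into each other as GAAAAGGAAACCGAAACAGAAA. In the windows of 300 bases searched, 250 before the start and 50 after it, Ube2l6, Herc6 and Uba7 held no match of these letters. No window was listed for Usp18, which was therefore not searched. A match was held by 1131 of all 32851 promoter windows listed (3.44%) and by 374 of the 11596 windows of genes tested here (3.23%). A match is a description of letters, not of a bound site.

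The whole LK compartment answers how the 5 genes moved as a set after IFNα. At 3 h all 5 were higher than in control, by 2.99-fold for Uba7, 10.4-fold for Ube2l6 and for Herc6, 47.7-fold for Usp18 and 69.1-fold for Isg15. By 24 h most of the rise was gone, and 3 of the 5 were still called. At 72 h none was called in either direction. Levels are CPM, that is, the gene's UMIs summed over a mouse's cells per 1000000 UMIs of that mouse, scaled between mice by the trimmed mean of M values. A gene is called at an adjusted p under 0.05 and a log2 fold change over 1 in either direction, in the quasi-likelihood F test of edgeR with Benjamini-Hochberg adjustment over 12042 genes. Standard errors (SE) were taken as the absolute log2 fold change over the square root of the F statistic. They are poorly determined for changes near 0. Those of differences between classes were made likewise. In such sums a larger share of cells of a type and more RNA per cell cannot be told apart.

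Isg15, the modifier, was at 26.3, 18.2, 24 and 61.8 CPM in the 4 control mice. The high value was that of control replicate 4, where a single cell carried 50 of its 71 Isg15 UMIs. At 3 h the 4 mice were at 1740, 1810, 1710 and 1520 CPM, all far above control (log2 fold change 6.11 ± 0.179 SE, edgeR adjusted p = 5.5e-12). At 24 h they were at 91.7, 94.8, 87.5 and 107 CPM, again with no overlap (log2 fold change 1.96 ± 0.17 SE, edgeR adjusted p = 2.52e-06). At 72 h the values of 19.3, 18.5, 18.6 and 19.9 CPM lay within the control range (log2 fold change -0.36, edgeR adjusted p = 0.191).

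Uba7, which activates ISG15 at the cost of ATP, moved least. Control mice were at 28.9, 25.4, 23.9 and 29.6 CPM. The 3 h mice were at 70.7, 83.9, 85.6 and 71.5 CPM (log2 fold change 1.58 ± 0.0834 SE, edgeR adjusted p = 7.41e-15). The 24 h mice were at 39.9, 46.3, 42.8 and 38.3 CPM and the 72 h mice at 40.4, 33, 37 and 35.8 CPM. Every treated mouse was above every control mouse at all 3 time points, and the share of all genes that did so was not counted. At 24 h (log2 fold change 0.68, edgeR adjusted p = 3.03e-07) and 72 h (0.49, edgeR adjusted p = 5.45e-05) the difference passed the p threshold but not that on fold. Uba7 was the only one of the 5 with an adjusted p under 0.05 at 72 h, which 37.4% of all genes tested had.

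Ube2l6, the E2 enzyme, was at 31.8, 27, 31.5 and 42.6 CPM in control. At 3 h it was at 307, 346, 347 and 273 CPM (log2 fold change 3.37 ± 0.0917 SE, edgeR adjusted p = 1.66e-15). At 24 h the mice were at 63.5, 70.1, 69.2 and 65.7 CPM, all above control (log2 fold change 1.13, edgeR adjusted p = 5.45e-08). At 72 h they were at 29.9, 32.8, 27.9 and 27.3 CPM, which overlapped control (log2 fold change -0.06, edgeR adjusted p = 0.654).

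Herc6, the ligase, was at 11.8, 11.2, 12.4 and 13.9 CPM in control and at 119, 131, 130 and 112 CPM at 3 h (log2 fold change 3.37 ± 0.0803 SE, edgeR adjusted p = 1.94e-26). Its 24 h values of 14.7, 18.9, 19.1 and 17 CPM were all above control, by a log2 fold change of 0.56 that was too small to be called (edgeR adjusted p = 7.45e-06). At 72 h it was at 11.7, 14.6, 13.1 and 13.8 CPM, which overlapped control (log2 fold change 0.15, edgeR adjusted p = 0.229). Herc6 and Ube2l6 thus had the same log2 fold change at 3 h but not at 24 h, where only Ube2l6 was called; the difference between the genes was not tested.

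Usp18, the protease, was at 5.65, 6.42, 6.06 and 11.3 CPM in control, the last again in control replicate 4. The 3 h mice were at 308, 317, 290 and 264 CPM (log2 fold change 5.57 ± 0.0781 SE, edgeR adjusted p = 2.07e-32). At 24 h they were at 22, 22.5, 20.9 and 20.5 CPM (log2 fold change 1.80, edgeR adjusted p = 3.83e-17), all above control. At 72 h they were at 6.12, 6.28, 5.72 and 6.32 CPM (log2 fold change -0.02, edgeR adjusted p = 0.964), which overlapped control.

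**Figure D1:**
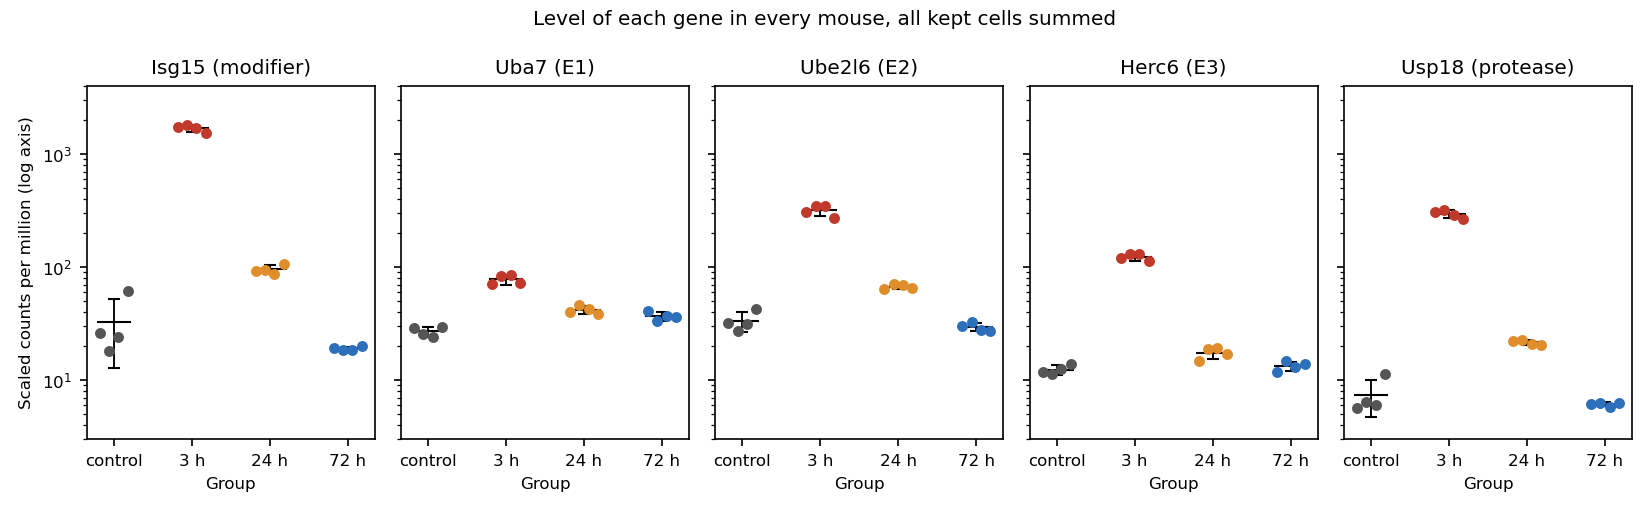
Level of each of the 5 genes in scaled CPM (log axis) in the 4 mice of each group, with all kept cells summed. Points are mice, and the black bars are the mean and SD. At 3 h every mouse is above every control mouse in all 5 panels, and at 72 h Uba7 alone stays above control in all 4 mice. The share of all genes that separate so was not counted; 38.9% at 3 h and 37.4% at 72 h had an adjusted p under 0.05.

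All 5 genes called higher at 3 h compare with 5.21% of all genes tested. The 5 were chosen with earlier results of these data known, so this is a description and not a test of the set. Ordered by log2 fold change among the 12042 genes, Isg15 was at rank 14, Usp18 at 21, Ube2l6 at 94, Herc6 at 95 and Uba7 at 333. At 24 h the 3 genes called higher were Isg15, Ube2l6 and Usp18 (1.46% of all genes). At 72 h 0 of the 5 were called higher (1.68% of all genes) or lower (1.1%) by edgeR's quasi-likelihood test, and 0 by its likelihood ratio test and by DESeq2. At an unadjusted p under 0.05 Uba7 alone was higher at 72 h, and none was lower. Over all genes 37.4% had an adjusted p under 0.05 at 72 h, in either direction. The share of all genes at an unadjusted p was not counted. Counts at that threshold, here and below, are therefore not read as a result. Between 3 h and 24 h, Isg15, Ube2l6, Herc6 and Usp18 were called lower, with log2 fold changes of -4.15, -2.25, -2.81 and -3.78 (2.95% of all genes), and Uba7 had -0.90. Between 24 h and 72 h Isg15 (-2.32), Ube2l6 (-1.19) and Usp18 (-1.81) were called lower (0.623% of all genes), Herc6 had -0.41 and Uba7 -0.19. Successive comparisons share mice. The counts over all cells were the same when any 1 mouse, control replicate 4 included, was left out.

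Counting cells rather than RNA gives the spread of the response through the compartment. Each cell was thinned to 5000 UMIs at random so that depth did not differ, which left out 35 to 68 shallower cells per library. At 3 h, 99.4% ± 0.761 (SD, n = 4) of cells had at least 1 Isg15 UMI, against 9.94% ± 0.547 in control, 29.4% ± 1.84 at 24 h and 9.10% ± 1.23 at 72 h. The per-mouse shares were 100.0%, 99.7%, 98.3% and 99.7% at 3 h and 9.31%, 9.67%, 10.2% and 10.5% in control. Without thinning, 1 of the 1661 cells at 3 h had no Isg15 UMI.

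Usp18 went from 3.63% of cells in control to 72.8% at 3 h, 10.9% at 24 h and 3.67% at 72 h. Ube2l6 went from 16.2% to 72.1%, 29.7% and 15.2%, and Herc6 from 7.45% to 45.3%, 9.72% and 7.46%. Uba7 went from 16.3% to 33.5%, 22.2% and 18.9%, the smallest step of the 5 at 3 h. All 5 genes together were seen in 11.9% ± 1.30 (SD, n = 4) of cells at 3 h, in 0.105% at 24 h, and in 0 of 2439 control cells and 0 of 2381 cells at 72 h, counts that allow shares of up to 0.123% and 0.126% (3 cells, counting error only). None of the 5 was seen in 62.1% of control cells, 0.127% at 3 h, 34.9% at 24 h and 58.2% at 72 h. RNA free in the droplets can give a UMI in a cell that does not express a gene: Hba-a1, a hemoglobin gene that myeloid progenitors lack, had a UMI in 0.101% (control) and 0.298% (3 h) of myeloid progenitor-like cells and in 2.62% of control HSC-like cells, thinned to the same depth. At 3 h the shares of all 5 genes lay above these. Hba-a1 was itself scarce, with a UMI in at most 2.93% of cells of any 3 h mouse. It therefore sets no limit on free RNA of a gene as abundant as Isg15 at 3 h, and that part was not tested. In control myeloid progenitor-like cells 6 of 714 had a Usp18 UMI (0.655%), against 1 of 714 with a Hba-a1 UMI in the same cells, and the part of free RNA in that low Usp18 level was not tested.

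**Figure D2:**
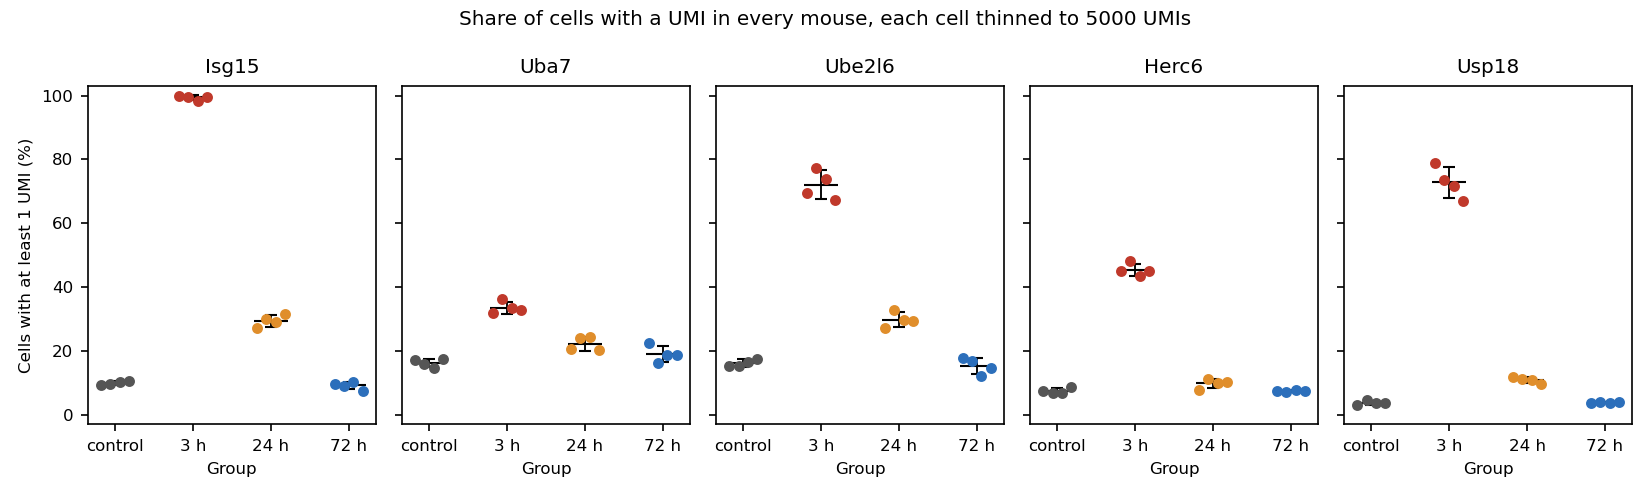
Share of cells with at least 1 UMI of each gene, in percent, in the 4 mice of each group, after thinning every cell to 5000 UMIs. Points are mice, and black bars are the mean and SD; at 3 h Isg15 is seen in at least 98.3% of cells of every mouse, while Uba7 reaches at most 36.1% in any mouse.

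Within the 3 h library the amount varied from cell to cell. The median cell had 16.3 Isg15 UMIs per 10000, the 5th percentile was 5.29 and the 95th 35.8. In control cells the 95th percentile was 1.54 and the highest cell reached 34.5, which is within the 3 h range. A few control cells therefore carried Isg15 at the level of treated cells. Of the 2474 control cells, 20 (0.808%) had 10 or more Isg15 UMIs, and these held 404 of the library's 1352 Isg15 UMIs (29.9%). The limit of 10 UMIs was chosen after the values were seen, so the figures that follow are a description. Those 20 cells had Usp18 at 124 CPM against 5.55 in the other control cells, Ube2l6 at 378 against 29.1, Herc6 at 124 against 11.5 and Uba7 at 76.1 against 26.6. Ifit1, an interferon-stimulated gene outside the group, was at 256 against 2.29 CPM. None of the 20 had a barcode seen in another library, and they lay in all 4 control mice (9, 4, 6 and 1 cells). By class, 5 were HSC-like, 4 LMPP-like, 4 erythroid progenitor-like and 2 MK progenitor-like, 5 were in unnamed clusters and 0 of 714 were myeloid progenitor-like, which allows up to 0.42%. At 72 h such cells numbered 7 of 2449 (0.286%), and at 24 h 114 of 3462 (3.29%). The limit is on UMIs without thinning, so these shares, by class too, depend on depth. The median UMI count per cell was 18964.5 in control, 18953.5 at 24 h and 14763 at 72 h. In control replicate 4, leaving out its 1 such cell, which was MK progenitor-like, took Isg15 from 64.4 to 19.3 CPM, Usp18 from 11.8 to 7.35 and Ube2l6 from 44.4 to 33.1 (CPM not scaled between mice).

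Cells were placed in classes to ask whether the 5 genes moved alike across lineages. Control cells were clustered without the 5 genes and without listed interferon genes, clusters were named from fixed markers, and treated cells took the label of their nearest control cells. HSC-like, LMPP-like, myeloid progenitor-like, erythroid progenitor-like and MK progenitor-like cells were compared, with mice of at least 10 cells. Control replicate 4 had too few cells in all but the LMPP-like and myeloid progenitor-like classes, so that n = 3 in control elsewhere. The myeloid progenitor-like class was made of clusters 2, 4 and 10. Cluster 2 was the largest of these in control (295 of 714 cells) and cluster 4 at 3 h (152 of 258), 24 h (364 of 664) and 72 h (177 of 358). The HSC-like class was cluster 9, named from Hlf, and the immune genes Jchain, Ltb and Mzb1 were among its 10 leading genes too. The LMPP-like class was clusters 1 and 11, named from markers that included Dntt and Flt3. Cluster 1 held 305 of its 400 control cells and was led by Cpa3. Ms4a2, a listed marker of basophil, mast cell and eosinophil progenitors, was also among the 10 leading genes of cluster 1. Clusters 5, 6 and 8 did not meet the naming rule and stay unnamed.

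In control mice all 5 genes had their highest mean level in HSC-like cells among the named classes. Isg15 was at 97, 56.1 and 76.3 CPM there, above every mouse of the other named classes. Unnamed cluster 5, which also has Hlf among its leading genes, overlapped the HSC-like mice for Isg15, at 27.6 to 79.4 CPM. Its mean Usp18 was 17.5 CPM against 16.8 CPM in HSC-like cells. MK progenitor-like cells (34.5 ± 5.3 CPM, SD, n = 3), LMPP-like cells (31.1 ± 11.5, n = 4) and erythroid progenitor-like cells (27.7 ± 14.2, n = 3) overlapped each other. Myeloid progenitor-like cells were lowest, at 9.4, 7.96, 7.99 and 4.59 CPM, and overlapped no other named class. A few cells carried the HSC-like level, since 5 of the 187 control cells, each with 10 or more Isg15 UMIs, held 98 of the 164 Isg15 UMIs of the class. Without such control cells the HSC-like mice were at 40.1, 31.4 and 26.5 CPM (not scaled between mice), which overlapped the 33.4, 31.8 and 33.2 CPM of MK progenitor-like cells. LMPP-like cells were then at 21.7 to 27.0 CPM and erythroid progenitor-like cells at 13.2 to 17.7 CPM, with no overlap between them, and the myeloid progenitor-like level stayed the lowest. Mean Usp18 was then 11.4 CPM in HSC-like and in MK progenitor-like cells, while Uba7, Ube2l6 and Herc6 still had their highest mean in HSC-like cells.

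For Uba7 the order was HSC-like (108 ± 12.9 CPM, SD, n = 3), MK progenitor-like (70.2 ± 17.6), LMPP-like (22 ± 5.06, n = 4), myeloid progenitor-like (13.2 ± 3.49, n = 4) and erythroid progenitor-like (6.73 ± 0.344). Only the LMPP-like and myeloid progenitor-like ranges overlapped. Ube2l6 ran from 90.5 ± 27.6 CPM in HSC-like cells to 8.45 ± 1.00 in myeloid progenitor-like cells, and Herc6 from 36.8 ± 2.74 to 7.18 ± 0.304. Usp18 ran from 16.8 ± 7.74 CPM in HSC-like to 1.82 ± 0.407 in myeloid progenitor-like cells, where control mice had 1 to 16 Usp18 UMIs each. HSC-like and MK progenitor-like cells overlapped for Usp18. These are levels per UMI, and control cells of HSC-like cluster 9 held a median of 10259 UMIs against 30556 to 35849 in the myeloid progenitor-like clusters.

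At 3 h 5 of 5 genes were called higher in HSC-like cells (4.58% of all genes tested there), 4 in LMPP-like (3.34%), 4 in myeloid progenitor-like (3.38%), 5 in erythroid progenitor-like (3.99%) and 4 in MK progenitor-like cells (3.64%). The gene not called was Uba7 each time, with log2 fold changes of 0.97, 1.00 and 0.83 and adjusted p under 0.05 by edgeR in all 3 classes. With 1 mouse left out Uba7 was called in 9 of 16 fits of myeloid progenitor-like cells (1.02 without control replicate 4). It was called in 3 of 16 such fits of LMPP-like cells and 1 of 15 of MK progenitor-like cells. The likelihood ratio test called all 5 genes in myeloid progenitor-like cells. In HSC-like cells Uba7 had 1.02, so that it was called there by a margin of 0.02 on the log2 scale, and not called under 4 other settings (0.82 to 0.95) or without control replicate 1 or 3 h replicate 3. In unnamed clusters 5, 6 and 8, 4, 5 and 5 of the 5 were called (4.35%, 3.75% and 4.81% of all genes), Uba7 in cluster 5 being the exception.

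The size of the 3 h change differed between classes for 3 of the genes, in a model with the mouse as block that tested each class's change against that of HSC-like cells over 10776 genes. Isg15 had its largest log2 fold change among the named classes in myeloid progenitor-like cells, where it rose from the control values above to 939, 1100, 915 and 870 CPM (log2 fold change 6.82). In HSC-like cells it reached 2420, 2350, 2480 and 2140 CPM, a log2 fold change of 4.87 from a higher start. The difference was 1.85 ± 0.362 on the log2 scale (edgeR adjusted p = 0.00115). A second computation left out the few control cells with many Isg15 UMIs, but no treated cells. As a log2 ratio of mean CPM, not scaled between mice and with no test, the difference was 2.10 with all cells and 0.84 without control cells of 10 or more Isg15 UMIs, where HSC-like cells had 6.01 and myeloid progenitor-like cells 6.86. Leaving such cells out lowers the HSC-like control level by construction, so the direction of that shift was set by the choice of cells. Erythroid progenitor-like cells then had the largest Isg15 change among the named classes (7.06). Treated HSC-like cells still had the higher level, so that myeloid progenitor-like cells had the larger fold and the lower end point.

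Usp18 rose from 1.36, 1.99, 1.65 and 2.3 CPM to 222, 229, 163 and 183 CPM in myeloid progenitor-like cells (log2 fold change 6.85), and from 12.1, 25.7 and 12.5 to 350, 410, 381 and 397 CPM in HSC-like cells (4.64). The log2 difference between classes was 2.16 ± 0.587 (edgeR adjusted p = 0.0372). Its control level in myeloid progenitor-like cells is that of 1 to 16 UMIs per mouse, in which the part of free RNA was not tested, so the size of the fold is uncertain. As a log2 ratio of mean CPM the difference was 2.29 with all cells and 1.71 without control cells of 10 or more Isg15 UMIs. Treated cells were all kept. Fitted alone, clusters 2 and 4 gave 7.03 and 6.81 for Isg15 and 6.59 and 6.46 for Usp18. Uba7 stood out in erythroid progenitor-like cells, where it went from 6.45, 6.62 and 7.11 CPM to 32, 42.9, 37.3 and 44.8 CPM, a log2 fold change of 2.53 against 1.02 in HSC-like cells. That difference was 1.37 ± 0.306 (edgeR adjusted p = 0.00406).

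Ube2l6 and Herc6 had no tested difference between classes at 3 h, with log2 fold changes of 2.70 to 3.06 and 2.69 to 3.34 over the named classes. For Herc6 the largest difference was that in myeloid progenitor-like cells, -0.49 ± 0.241 against HSC-like cells (edgeR adjusted p = 0.414). An adjusted p over 0.05 does not show that classes moved alike. For LMPP-like and MK progenitor-like cells 0 of 5 genes differed from HSC-like cells at 3 h, where 0.501% and 0.065% of all genes did by adjusted p alone, and 1 of 5 had an unadjusted p under 0.05, Isg15 in MK progenitor-like cells. For myeloid progenitor-like cells 2 of 5 differed (1.86% of all genes) and for erythroid progenitor-like cells 1 of 5 (0.956%). Isg15 in erythroid progenitor-like cells, with 1.35 ± 0.364, just missed (edgeR adjusted p = 0.0545).

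**Figure D3:**
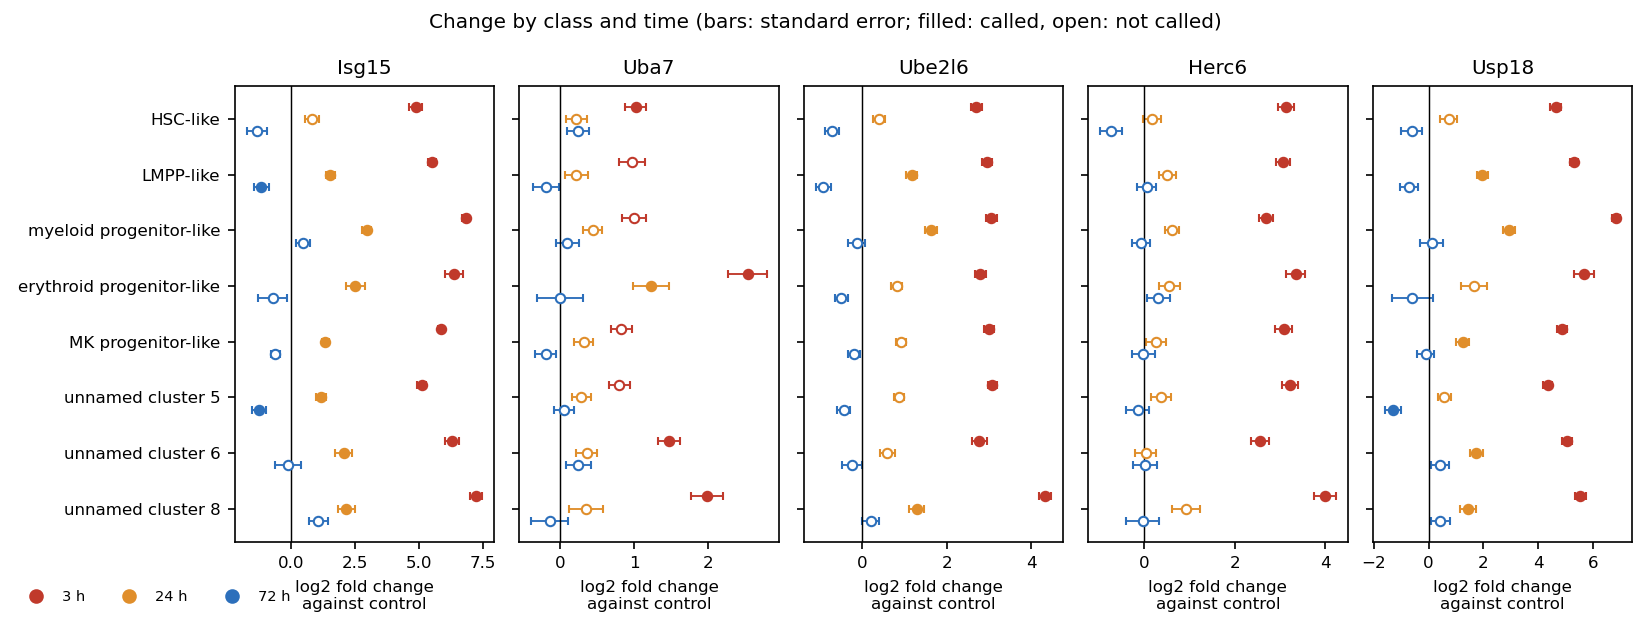
log2 fold change against control of each gene in the 5 named classes and 3 unnamed clusters at 3 h, 24 h and 72 h. Points are estimates of edgeR with 1 standard error, taken from the F statistic, as bars, filled where called and open where not. Each panel has its own axis. With all cells kept, Isg15 and Usp18 have their largest 3 h changes among named classes in myeloid progenitor-like cells (6.82 and 6.85), and Uba7 in erythroid progenitor-like cells (2.53). For Isg15 this order turns without the control cells of 10 or more Isg15 UMIs, where treated cells with as many were kept.

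At 24 h between 0 and 3 of the 5 genes were called in each named class. In HSC-like cells 0 of the 5 genes were called higher by edgeR's quasi-likelihood test (0.429% of all genes), and 0 by its likelihood ratio test, while 3 of 5 had an unadjusted p under 0.05. The share of all genes with an unadjusted p under 0.05 was not counted. HSC-like Isg15 values of 95.6, 170, 96.4 and 189 CPM overlapped control in part. The log2 ratio of mean Isg15 CPM in HSC-like cells was 0.83, and 2.09 without the 5 control cells of 10 or more Isg15 UMIs (not scaled between mice, no test). Treated cells with as many UMIs were kept, so the direction of that shift was set by the choice of cells. In LMPP-like cells Isg15, Ube2l6 and Usp18 were called, with log2 fold changes of 1.53, 1.17 and 1.97 (0.783% of all genes). The same 3 genes were called in myeloid progenitor-like cells, with 2.95, 1.63 and 2.94 (1.07% of all genes). Erythroid progenitor-like cells had Isg15 (2.51) and Uba7 (1.23) called (1.58% of all genes), and Usp18 at 1.65 just missed (edgeR adjusted p = 0.0529). MK progenitor-like cells had Isg15 (1.34) and Usp18 (1.25) called (0.501% of all genes), Usp18 not without control replicate 1 (0.98). Herc6 was called in none of the classes at 24 h, with log2 fold changes of 0.17 to 0.61 in the named ones.

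Against the change in HSC-like cells, that in myeloid progenitor-like cells at 24 h was larger by 2.04 ± 0.383 for Isg15 (edgeR adjusted p = 0.00203) and by 1.18 ± 0.197 for Ube2l6 (edgeR adjusted p = 5.48e-05). For Usp18 the difference of 2.18 ± 0.622 missed the threshold (edgeR adjusted p = 0.101). Erythroid progenitor-like cells differed for Isg15, by 1.62 ± 0.387 (edgeR adjusted p = 0.0201), and had 0.97 ± 0.285 for Uba7 (edgeR adjusted p = 0.056). These were 2 of 5 and 1 of 5 genes, where 0.687% and 1.2% of all genes differed. Without control cells of 10 or more Isg15 UMIs the Isg15 differences, as log2 ratios of mean CPM, went from 2.22 to 0.96 in myeloid progenitor-like and from 1.63 to 1.32 in erythroid progenitor-like cells, and that of Ube2l6 in myeloid progenitor-like cells was 0.81, none of them tested. Here too treated cells with as many Isg15 UMIs were kept. For LMPP-like (0.0557% of all genes) and MK progenitor-like cells (0%) 0 of 5 passed, with 2 of 5 and 1 of 5 at an unadjusted p under 0.05. In all, 6 of 60 differences tested over the 5 genes, 4 classes and 3 time points had an adjusted p under 0.05.

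Unnamed cluster 8, whose leading genes include Gata2 and Apoe, had the largest 3 h changes of any cluster or class for Isg15 (7.23), Ube2l6 (4.33) and Herc6 (3.99), which were not tested against other classes. The 3 control mice had 10 to 18 Isg15, 19 to 32 Ube2l6 and 7 to 15 Herc6 UMIs each in this cluster. In it 0 of 200 control cells had 10 or more Isg15 UMIs. How it would rank for Isg15 without such cells in the other clusters and classes was not tested. At 24 h Isg15, Ube2l6 and Usp18 were called there (0.871% of all genes). Cluster 6, whose leading genes include Pf4 and genes of cell division such as Mki67 and Top2a, had Isg15 and Usp18 called at 24 h (0.86% of all genes), and cluster 5 Isg15 alone (0.725%), which was not called without control replicate 2 (log2 fold change 0.86).

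At 72 h, when none of the 5 genes was called over all cells and Uba7 was still above control in every mouse, Isg15 was called lower in LMPP-like cells and in unnamed cluster 5. In LMPP-like cells Isg15 was at 8.88 to 18 CPM against 24.8 to 48.4 CPM in control, with no overlap (log2 fold change -1.16 ± 0.282 SE, edgeR adjusted p = 0.0249), the 1 gene of 5 called lower there (0.339% of all genes). Ube2l6 was at -0.92 in the same cells (edgeR adjusted p = 0.000149) and did not reach the fold. Control replicate 3 set the top of the LMPP-like control range, with 3 cells holding 67 of its 130 Isg15 UMIs. Without that mouse the log2 fold change was -0.78 (edgeR adjusted p = 0.00234) and not called. Without 72 h replicate 2, 3 or 4 it was -1.20, -1.21 and -0.97, with edgeR adjusted p of 0.0537, 0.06 and 0.0533, so the call rested on single mice. Leaving out all LMPP-like cells with 10 or more Isg15 UMIs gave 21.7 to 27.0 CPM in the 4 control mice and 8.69 to 17.8 at 72 h (not scaled between mice), still without overlap.

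In HSC-like cells Isg15 was at 42.5, 39.1, 27.7 and 17.7 CPM at 72 h, below all 3 control mice, with a log2 fold change of -1.34 that was not called (edgeR adjusted p = 0.139). Ube2l6 was at -0.71 (edgeR adjusted p = 0.0039), and Herc6 at -0.73 (edgeR adjusted p = 0.112). By edgeR's quasi-likelihood test 0 of 5 were called lower in HSC-like cells (0.252% of all genes), with 3 of 5 at an unadjusted p under 0.05 and Isg15 called by the likelihood ratio test. Without the 6 HSC-like cells of both groups that had 10 or more Isg15 UMIs, Isg15 was at 26.5 to 40.1 CPM in control and 17.3 to 39.3 CPM at 72 h, which overlapped.

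In unnamed cluster 5 Isg15 (log2 fold change -1.26 ± 0.273 SE, edgeR adjusted p = 0.0162) and Usp18 (-1.31 ± 0.298 SE, edgeR adjusted p = 0.00166) were called lower (0.268% of all genes). Its Isg15 ranges overlapped, with 27.6 to 79.4 CPM in control and 20.4 to 29.5 at 72 h, and those of Usp18 did not (16.1 to 19.5 against 4.52 to 8.04). The Isg15 call was lost without control replicate 1 (-1.17) or 3 (-0.95). MK progenitor-like cells had Isg15 at -0.61 (edgeR adjusted p = 0.0232), too small to be called. The count of genes called lower by the quasi-likelihood test was 0 of 5 in myeloid progenitor-like (0.393% of all genes), erythroid progenitor-like (0.217%) and MK progenitor-like cells (0.251%) and in unnamed clusters 6 (0.259%) and 8 (0.111%). At an unadjusted p under 0.05 these had 0, 1, 1, 0 and 0 genes lower, and the likelihood ratio test called 0 in the 3 named classes. No gene of the 5 differed from HSC-like cells in its 72 h change in any named class, where 0.0464% (LMPP-like), 0.0928% (myeloid progenitor-like), 0.0557% (erythroid progenitor-like) and 0% (MK progenitor-like) of all genes did. At an unadjusted p under 0.05 these classes had 1, 2, 1 and 2 of the 5 genes.

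The make-up of the compartment moved with time and touches the summed levels. Myeloid progenitor-like cells, in which 4 of the 5 genes were lowest, gave 44.6% of control UMIs and 27.3%, 30.9% and 24.4% at 3 h, 24 h and 72 h. HSC-like cells gave 3.66% in control and 7.27%, 5.09% and 6.19% after IFNα. The 17 listed myeloid progenitor markers summed to 14000 to 19100 CPM in control mice and 7860 to 9990 at 72 h, and the 10 HSC markers to 198 to 261 and 257 to 305 CPM. Levels were therefore also computed with each class and unnamed cluster weighted by its share of control UMIs, without control replicate 4 (n = 3 in control) and without scaling between mice.

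With the make-up held, Uba7 at 72 h was at 28.4, 24.6, 27.8 and 25.1 CPM against 24.7 to 29.3 CPM in control, where as found it was at 33.8 to 41.7. The ranges then overlapped, and the mean of 26.5 CPM was not above the control mean of 27.0. Ube2l6 at 72 h fell too, from 27.7 to 33.6 CPM as found to 19.8 to 24.7 CPM, below the 28.5 to 33.0 of all 3 control mice. Isg15 was at 15.2 to 17.4 against 19.6 to 27.3 CPM, and Usp18 at 4.41 to 5.68 against 5.79 to 6.78, both below control in every mouse. Herc6 (10.7 to 12.2 against 12.0 to 12.9 CPM) overlapped. At 3 h the genes were still far above control: Isg15 at 1390 ± 78.1 (SD, n = 4), Ube2l6 at 225 ± 8.59, Herc6 at 90.8 ± 2.39, Usp18 at 248 ± 24.0 and Uba7 at 53.1 ± 1.51 CPM, the last against 72.5 as found. These values are a description added after the levels were seen, with no test.

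**Figure D4:**
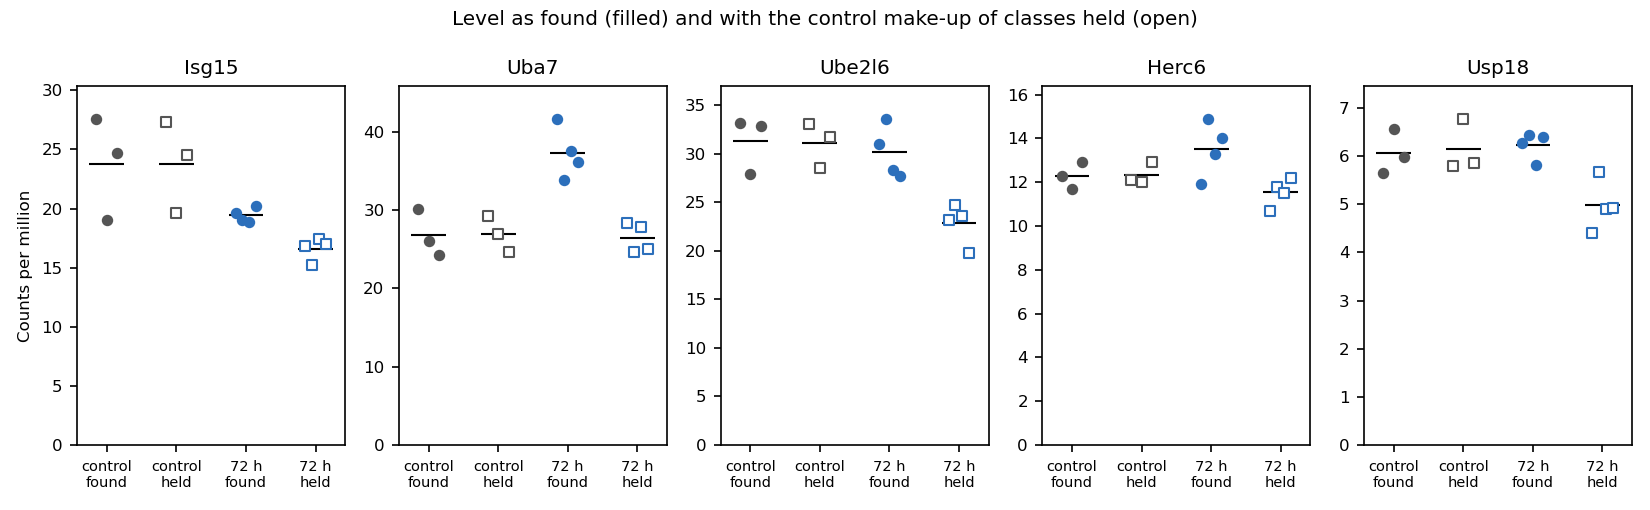
Level of each gene (CPM, not scaled between mice) in 3 control mice (grey) and the 4 mice at 72 h (blue), as found (filled circles) and with the control make-up of classes held (open squares). Points are mice and lines are means; Uba7 at 72 h falls from a mean of 37.3 to 26.5 CPM, and Ube2l6 from 30.1 to 22.8.

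The genes that work beside the ISG15 system were taken as lists by name. Among 20 partners of ISG15 and USP18 (the receptor, its kinases and factors, other proteases and ligases), 19 were tested. Called higher at 3 h were, among others, Stat2 (log2 fold change 2.88), a signalling factor, Irf9 (1.51), its DNA-binding partner, and Trim25 (1.15), a ligase. The median log2 fold change of the list was 0.02, against -0.03 over all genes. At 24 h and 72 h 0 of 19 were called by edgeR or DESeq2, with 6 higher and 5 lower at 24 h and 3 higher and 5 lower at 72 h at an unadjusted p under 0.05. Over all genes 28.3% at 24 h and 37.4% at 72 h had an adjusted p under 0.05, so these counts are not read as a result about the list. Stat2 fell between 3 h and 24 h, by 2.34 on the log2 scale. Ifnar2, the receptor chain that USP18 binds, had a log2 fold change of -0.16 at 3 h, -0.19 at 24 h and -0.40 at 72 h (edgeR adjusted p = 2.65e-06), all under the limit on fold, and Ifnar1 -0.17, -0.02 and -0.01.

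The families of the 4 enzymes are given beside them for comparison. Over all genes tested 5.21% were called higher at 3 h, 1.46% at 24 h and 1.68% at 72 h, so that counts of 0 to 2 genes in families of 4 to 43 are not read as a result about the families. With no limit on fold, 38.9%, 28.3% and 37.4% of all genes had an adjusted p under 0.05. Counts at an unadjusted p are therefore not read as a result about the families either. Of 9 other E1 enzymes 0 were called at 3 h, 24 h or 72 h by edgeR or DESeq2, with 3 higher and 3 lower at 3 h at an unadjusted p under 0.05. Uba1, the E1 of ubiquitin and the closest relative of Uba7 taken here, was at 0.13 at 3 h. Of 31 tested E2 enzymes 0 were called at 3 h or 24 h by edgeR or DESeq2, with 4 higher and 9 lower at 3 h at an unadjusted p under 0.05. Ube2l3, the relative of Ube2l6, was at 0.05, and Ube2c, which acts in mitosis, was lower at 72 h (-1.08), though not called without control replicate 2.

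Of 4 other HERC genes Herc3 was called at 3 h (1.65), from 3.59 ± 1.13 to 9.66 ± 1.23 CPM (SD, n = 4). Of 43 tested USP genes Usp50 (1.42) and Usp25 (1.38) were called at 3 h and no others, and Usp2, the relative of Usp18, was at -0.56. The medians of the E1, E2, HERC and USP families at 3 h were -0.10, -0.08, 0.25 and 0.05 on the log2 scale. At 24 h and 72 h 0 of 4 HERC and 0 of 43 USP genes were called by either tool, with 2 and 11 genes at an unadjusted p under 0.05 at 24 h, and 1 and 12 at 72 h.

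**Figure D5:**
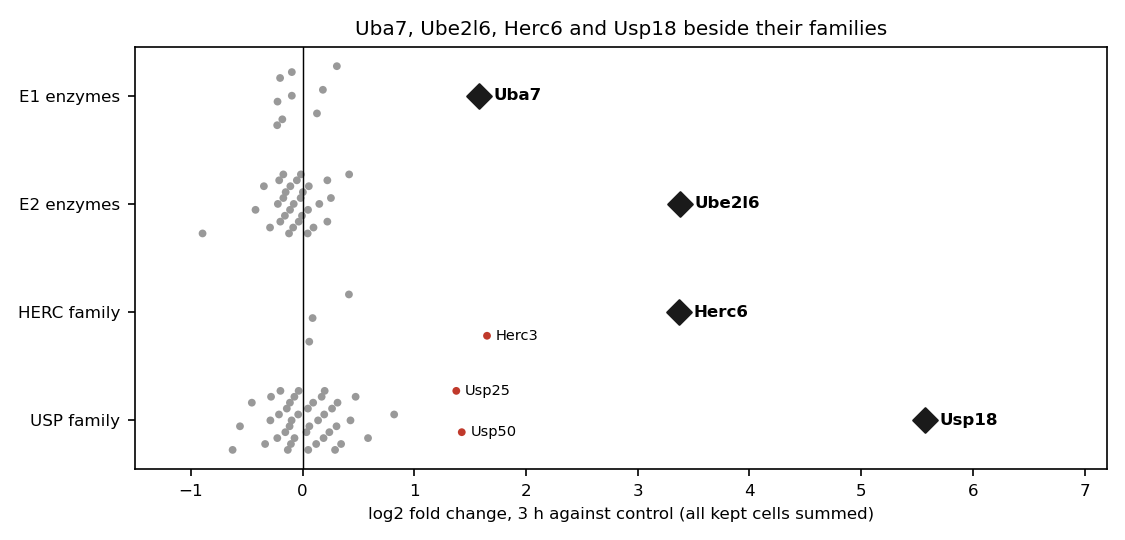
log2 fold change at 3 h against control, with all kept cells summed, of Uba7, Ube2l6, Herc6 and Usp18 (black diamonds) beside the other tested genes of their families. Small points are genes, red and named where called and grey where not. Uba7 is at 1.58 and Ube2l6 at 3.37, and no other E1 or E2 enzyme is called. Over all genes 5.21% are called higher, so this is not read as a result about the families.

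The genes most like each of the 5 over the 16 mice were found by Pearson's r of log2 CPM, a description over mice that share libraries. For Isg15 they were Ifit1 (r = 0.998), Zbp1, Tgtp2, Ifi44 and Irgm1. For Usp18 they were Tgtp2 (0.998), Ifi44, Oasl2, Oasl1 and Irgm1, and for Ube2l6 Ifi44 (0.997), Oasl2, Xaf1, Oasl1 and Tgtp2. Isg15, Ube2l6 and Usp18 thus shared Tgtp2 and Ifi44. For Herc6 they were Gbp7 (0.996), Trim30d, Samhd1, Parp10 and Ifi47. For Uba7 they were Tbrg1 (0.981), Zcchc11, H2-T22, Samd9l and Xrn1, none of them on another gene's list. Among the 5 themselves r ran from 0.916, between Isg15 and Uba7, to 0.997, between Ube2l6 and Usp18.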

How the data were processed

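Transcriptomes of single LK cells were measured in 4 droplet libraries, 1 per time point, each a pool of 4 hashed mice. Per the labels and the study's methods, the deposited matrices hold UMI counts that the authors made with Cell Ranger 3.1.0 on mm10 (10x 3′ kit). The deposited hashtag tables hold the authors' Seurat assignment of each cell, with its hashtag counts and a margin score (the gap between the top hashtags after their normalization); the assignment was used and the score was not. Counts were used as deposited; these are counts of molecules at the 3′ end, so no length scaling was applied. Cells with a single hashtag, at most 5% mitochondrial UMIs and at least 700 genes were kept, and hashtag multiplets were removed, while doublets within a mouse were not called. Mitochondrial, gene and hashtag limits left 10046 cells of 11899 with a single hashtag.

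UMIs were summed per mouse, overall and per class, and tested with edgeR 4.0.16 (R 4.3.3; filterByExpr, TMM, robust quasi-likelihood F test, 16 mice in 1 fit, Benjamini-Hochberg over all genes tested). DESeq2 1.42.0 and edgeR's likelihood ratio test were alternatives, beside other scalings, filters, cell limits, class labels, thinning depths, and each mouse left out in turn. The procedure was tested on simulated data. Control cells were clustered with scanpy 1.11.5 (500 variable genes, 10 components, 15 neighbours, Leiden resolution 0.8) without 342 interferon genes, and treated cells took the label of 15 nearest control cells after mutual nearest neighbour correction. Classes needed at least 10 cells per mouse.

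The genes named are the 5 themselves, the 5 genes most like each over the mice, listed genes called at any time point (at most 4 per list and time point with values), and 1 relative per enzyme. The 5 genes and all lists were chosen with earlier results of these data known. Antibody numbers do not mark shared animals. Over the 24 pairs of mice that share an antibody, deviations from group means correlated at -0.0582 to 0.0946, so the numbers were not treated as pairs. P-values measure the spread between mice of 1 library each. Intervals and limits cover counting error only. Some listed genes are not reported here.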

Additional observations from a re-analysis of the deposited data

Results flagged for a closer look

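Of 125 groups of 4 mice tested for a mouse far from the other three, 8 had one by Dixon's test, where chance gives about 1 in 20. Control replicate 4 stood apart for Usp18 over all cells (11.3 CPM) and for Uba7 in myeloid progenitor-like cells (18.4 CPM). Control replicate 3 stood apart in LMPP-like cells for Isg15 (48.4 CPM) and Usp18 (9.68 CPM), and in myeloid progenitor-like cells for Ube2l6, on the low side (6.97 CPM). At 24 h, replicate 2 was high for Ube2l6 in myeloid progenitor-like cells (29.2 CPM), and replicate 1 was high for Usp18 in erythroid progenitor-like cells (29.2 CPM) and low for Herc6 in MK progenitor-like cells (11.3 CPM).

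The change after IFNα differed from that in HSC-like cells in 6 of 60 tests (edgeR adjusted p under 0.05). In myeloid progenitor-like cells the log2 change was larger by 1.85 for Isg15 and by 2.16 for Usp18 at 3 h, and by 2.04 for Isg15 and 1.18 for Ube2l6 at 24 h. The Isg15 values were smaller when a few control cells were left out: as log2 ratios of mean CPM with no test, 2.10 at 3 h and 2.22 at 24 h became 0.84 and 0.96 without control cells of 10 or more Isg15 UMIs. No treated cells were left out, so the direction of that shift was set by the choice of cells. In erythroid progenitor-like cells the log2 change was larger by 1.37 for Uba7 at 3 h and by 1.62 for Isg15 at 24 h.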

How the results depend on the processing

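The counts of the 5 genes called over all cells (5, 3 and 0 against control, then 4 and 3 lower between successive time points) were the same under every alternative run, each mouse left out included. Of the changes of single genes under alternatives, 2494 kept direction and side of the threshold, 33 gained a call, 16 lost one and 27 changed sign. Depth limits Usp18 in control, with 1 to 16 UMIs per mouse in myeloid progenitor-like cells, and control replicate 4 could be fitted in 2 of the 5 named classes. Library and time point cannot be told apart. Except where stated, the cause of a change was not tested.

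With the hashtag antibody as a replicate block, Usp18 over all cells at 72 h had 0.01 in place of -0.02, the count lower in LMPP-like cells at 72 h was 0 in place of 1, and Herc6 in MK progenitor-like cells at 72 h had 0.01. The antibody number marks no shared animal, so the lost call is not read as a weaker effect.

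Stricter cell limits gave Usp18 0.04 at 72 h. With interferon genes kept for the labels, 1 gene was higher at 24 h and 1 lower at 72 h in HSC-like cells (0 in both otherwise), 0 were lower in LMPP-like cells at 72 h, and Herc6 there had -0.07. The likelihood ratio test called 1 gene lower in HSC-like cells at 72 h and 5 genes higher in myeloid progenitor-like cells at 3 h (4 otherwise). With library size alone Herc6 in LMPP-like cells had -0.02 at 72 h, and 1 E2 enzyme was lower at 3 h. Without neighbour correction Usp18 in myeloid progenitor-like cells had -0.05 and Herc6 in MK progenitor-like cells 0.09 at 72 h. The same labels gave differences from HSC-like cells of 0.30 for Usp18 in LMPP-like cells at 72 h and 0.01 for Uba7 in myeloid progenitor-like cells at 3 h. With RLE size factors the difference for Ube2l6 in erythroid progenitor-like cells at 3 h was 0.04, and 2 genes differed there in place of 1.

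Leaving out 1 mouse at a time gave 0 to 2 genes lower in LMPP-like cells at 72 h, 1 to 3 higher in MK progenitor-like cells and 0 to 1 in cluster 5 at 24 h, and 1 to 2 lower in cluster 5 at 72 h. At 3 h it gave 4 to 5 genes higher in HSC-like, LMPP-like, myeloid progenitor-like and MK progenitor-like cells. For the lists it gave 0 to 1 E2 enzymes lower at 3 h and at 72 h, 0 to 1 USP genes lower at 24 h and 0 to 1 higher at 72 h. At 72 h signs turned for Usp18 over all cells (-0.08 to 0.01), in LMPP-like cells for Uba7 (-0.31 to 0.03) and Herc6 (-0.09 to 0.23), in myeloid progenitor-like cells for Ube2l6 (-0.32 to 0.01), Herc6 (-0.20 to 0.05) and Usp18 (-0.36 to 0.31), in MK progenitor-like cells for Uba7 (-0.36 to 0.01), Herc6 (-0.16 to 0.13) and Usp18 (-0.39 to 0.45), and in cluster 5 for Uba7 (-0.06 to 0.23) and Herc6 (-0.24 to 0.06).

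Shares of cells with a UMI rose with depth, as the construction makes them. Thinning to 10000 UMIs left out 398 of 2474 control cells and 619 of 1661 cells at 3 h. At 24 h and 72 h it left out 382 of 3462 and 575 of 2449 cells. Those lost were the shallow cells, so the cells counted differ between these settings as well as the depth. Thinned to 10000 UMIs, Isg15 was at 14.3% in control, 45.1% at 24 h and 15.1% at 72 h, and in the order control, 3 h, 24 h and 72 h Uba7 was at 24.0%, 43.5%, 33.9% and 28.0%, Ube2l6 at 24.8%, 79.0%, 46.9% and 26.2%, Herc6 at 14.5%, 56.7%, 16.7% and 12.2%, and Usp18 at 6.67%, 87.4%, 17.6% and 5.93%. Without thinning Isg15 was at 21.5%, 61.2% and 21.0% in control, at 24 h and at 72 h, Uba7 at 39.9%, 56.6%, 51.2% and 38.1%, Ube2l6 at 39.6%, 91.4%, 67.1% and 35.8%, Herc6 at 21.3%, 74.0%, 29.1% and 20.0%, and Usp18 at 10.7%, 92.0%, 29.2% and 8.84%.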
